A study of Mus musculus with 4 samples.

Results

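Spatial contacts between enhancer-bearing regions of the mouse epidermal differentiation complex (EDC) and its neighbouring regions were compared between epidermal keratinocytes and thymocytes. The 16 putative enhancers E1 to E16, which the study defined from histone marks of active enhancers in keratinocytes, lie in 12 windows on chromosome 3 of the mm9 build: E1 at 90005 to 90028 kb, the cluster E2/E3 at 90319 to 90356 kb, the cluster E4-E7 at 90368 to 90430 kb, E8 at 92280 to 92303 kb, E9 at 92918 to 92945 kb, E10 at 93146 to 93172 kb, E11 at 93346 to 93374 kb, E12 at 94443 to 94465 kb, E13 at 94574 to 94599 kb, E14 at 94768 to 94790 kb, E15 at 95022 to 95045 kb and E16 at 95071 to 95098 kb. A contact was a member when the midpoints of its 2 restriction fragments fell in 2 different windows, a rule that used positions and no measured value. The windows hold 83 of the 712 fragments with data, and 1394 of the 111588 contacts listed in at least 1 library join different windows, of 1541 that the forward and reverse fragments in the windows could form. All 4 libraries listed 267 of these contacts, of 23395 in the whole data set. The enhancers were defined in keratinocytes, and whether the windows carry the same marks in thymocytes was not analysed here.

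The 4 5C libraries comprised 2 from primary epidermal keratinocytes of new-born C57Bl/6 mice, plated at high density in low calcium medium, and 2 from the total T cell population of C57Bl/6 thymi. In 5C (chromosome conformation capture carbon copy), formaldehyde-fixed chromatin is cut with HindIII and religated, and a forward and a reverse probe that anneal next to each other across a ligation junction are joined and sequenced, so the number of joined pairs reports how often 2 fragments were ligated. The libraries of a cell type are biological replicates according to the study, the number of animals behind each is not given in the sources used here, and contact data cannot check the cell type against marker genes. Each contact has an observed frequency, corrected for probe coverage, an expected frequency at that genomic distance, and a Z score, which gives the excess over expectation in units of the standard deviation (SD) at that distance.

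Enhancers are stretches of DNA that raise the transcription of genes which may lie far away along the chromosome, and contact between an enhancer and a promoter, or between enhancers, is one feature of active gene neighbourhoods. The EDC holds gene families that keratinocytes switch on as they differentiate into the cornified barrier of the skin, among them the S100 genes for calcium-binding proteins, the Sprr and late cornified envelope genes and the fused-type S100 genes. Thymocytes, the developing T cells of the thymus, do not build this barrier. In the genome, topologically associating domains (TADs) are stretches whose fragments contact each other more than they contact the neighbouring stretches.

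The windows lie in 5 of the TADs of the locus. E1, E2/E3 and E4-E7 are in TAD1, E8 in TAD3, E9, E10 and E11 in TAD4, E12, E13 and E14 in TAD6, and E15 and E16 in TAD7. According to the study TAD6 and TAD7 lie outside the EDC, and TAD1 also holds non-EDC genes, among them Rps27. In the annotation, E1 holds the starts of Rps27, a ribosomal protein gene, and Rab13. E2/E3 holds the starts of S100a14 and S100a16, and E4-E7, which begins 12 kb further on, the starts of S100a3, S100a4, S100a5 and S100a6. E8 holds the start of Sprr1a, a cornified envelope precursor, and E11 that of S100a10, whose product binds annexin A2. E12 holds the starts of Tuft1 and Gm10972, E13 that of Cgn, which encodes the tight junction protein cingulin, E14 that of Pi4kb, a lipid kinase, E15 those of Mllt11 and Cdc42se1, and E16 those of Prune and Fam63a. E9 and E10 hold no protein-coding gene, and the nearest gene starts to their fragments named below are those of Crnn (cornulin) and Hrnr (hornerin). In all, 10 windows hold a protein-coding gene start, against 94 of 212 consecutive tiles of 25 kb over the locus (44.3%), and the median GC content was 45.3% over the windows and 41.3% over the tiles.

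The sequences that the assay reads for the contacts on which the results turn are the junctions of 2 probes. Each junction is printed 5′ to 3′ as the 30 bases of the forward probe followed by the 30 bases of the reverse probe, and the capitals mark the HindIII site that ligation restores. The bases are those of the study's probes and matched the mm9 sequence of chromosome 3 exactly. The forward probe reads the plus strand at the end of the forward fragment, and the reverse probe the minus strand at the end of the reverse fragment.
FOR_154 x REV_126 (E4-E7 with E2/E3, chr3:90385869-90385898 and chr3:90322831-90322860): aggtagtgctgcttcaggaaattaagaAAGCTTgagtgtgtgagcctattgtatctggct
FOR_125 x REV_158 (E2/E3 with E4-E7, chr3:90322386-90322415 and chr3:90407397-90407426): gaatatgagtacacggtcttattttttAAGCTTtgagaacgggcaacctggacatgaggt
FOR_1595 x REV_145 (E14 with E4-E7, chr3:94782093-94782122 and chr3:90370342-90370371): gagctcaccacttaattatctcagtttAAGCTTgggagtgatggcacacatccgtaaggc
FOR_1151 x REV_1019 (E11 with E9, chr3:93362371-93362400 and chr3:92930932-92930961): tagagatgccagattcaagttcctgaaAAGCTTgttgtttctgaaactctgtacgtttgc
FOR_1151 x REV_132 (E11 with E2/E3, chr3:93362371-93362400 and chr3:90332041-90332070): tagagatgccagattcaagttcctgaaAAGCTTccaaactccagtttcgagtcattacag
FOR_159 x REV_1021 (E4-E7 with E9, chr3:90412989-90413018 and chr3:92934705-92934734): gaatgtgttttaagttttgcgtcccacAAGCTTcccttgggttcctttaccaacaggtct
FOR_1593 x REV_1080 (E14 with E10, chr3:94780190-94780219 and chr3:93155613-93155642): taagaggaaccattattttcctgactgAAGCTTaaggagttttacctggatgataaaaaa
FOR_154 lies in intergenic sequence of the S100 cluster, REV_126 in an intron of S100a13, FOR_125 over exons of S100a1 and S100a13, REV_158 over exons of S100a3, and FOR_159 over exons of S100a4 and S100a5. FOR_1595 is intronic in Pi4kb, FOR_1593 exonic in Pi4kb, FOR_1151 intronic in S100a10, and REV_132 covers the start of S100a14, while REV_145, REV_1019, REV_1021 and REV_1080 are intergenic. Of the 83 probes in the windows, 2 had another site in the locus within 5 mismatches, and neither belongs to a contact named here. For 7 probes the bases differed from the end of their fragment, and for 2 of these, REV_1150 and REV_162, no site lay within 5 mismatches.

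The libraries differed in how much they listed. Between different enhancer windows, the keratinocyte libraries listed 1272 and 731 contacts, or 86.8% and 51.0% of those their fragments could form, and the thymocyte libraries listed 482 and 638, or 32.1% and 43.6%. Raw counts were not analysed here and the depth in reads is unknown. A contact that is not listed has no value. The 267 contacts listed in all 4 libraries are thus a subset that passed the filters in the most sparsely listed library. Across these contacts the Z scores of the second keratinocyte library correlated about as well with the first thymocyte library (Pearson's r = 0.303) as with the first keratinocyte library (r = 0.293), and the 2 thymocyte libraries correlated with each other at r = 0.125. Over all 23395 contacts the same 3 values were 0.362, 0.278 and 0.249. The contacts share fragments and libraries, so these correlations are a description.

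Over the 267 contacts listed in all 4 libraries, contacts between enhancer windows were, at the median, slightly more frequent than expected in each library. Over every contact that a library listed this was not so: the median Z score was 0.0838 and 0.102 in keratinocytes and 0.115 and -0.212 in thymocytes, with the first thymocyte library the highest and the second below expectation. The values that follow are for the 267. In keratinocytes the median corrected 5C frequency was 121 and 67.1, against median expected frequencies of 74.8 and 46.9. In thymocytes it was 95.4 and 77.1, against 98.2 and 84.6. The median ratio of observed to expected was 1.22 and 1.13 in keratinocytes and 1.06 and 1.01 in thymocytes, and over all contacts it was 1.10, 1.10, 1.07 and 1.05 in the same order. Median Z scores over the members were 0.433 and 0.252 in keratinocytes and 0.144 and 0.0216 in thymocytes, so over this subset both keratinocyte medians were above both thymocyte medians. The corresponding medians over all contacts were 0.189, 0.218, 0.165 and 0.114. The median difference of keratinocyte minus thymocyte Z score was 0.156 over the members and -0.0201 over all contacts, and on the log2 scale of observed over expected frequency it was 0.10 against -0.00056. The sizes depended on single libraries. Without the first keratinocyte library the median Z difference was 0.00494, without the second 0.0911, without the first thymocyte library 0.312 and without the second 0.325. No p is given for a summary over the members, and with 2 libraries against 2 an exact two-sided permutation test cannot give a p under 0.333.

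Both keratinocyte Z scores were above both thymocyte Z scores in 64 of the 267 contacts (24.0%), against 21.1% of all contacts. Both were below in 36 (13.5%), against 19.1% of all contacts. Contacts above expectation in both keratinocyte libraries numbered 107 of 267 (40.1%), against 39.2% of all contacts. Those above expectation in both thymocyte libraries numbered 82 (30.7%), against 37.2%. Above expectation in all 4 libraries were 45 (16.9%), against 18.5%. The contacts with only 1 fragment in an enhancer window, 4437 in all, had a median Z difference of -0.0538, and 19.4% of them had both keratinocyte libraries above. The 18634 contacts with no fragment in such a window had -0.0165 and 21.5%.

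No contact between enhancer windows differed between the cell types in the test across all contacts. In limma with Benjamini-Hochberg adjustment over 23395 contacts, 0 of the 267 members passed an adjusted p of 0.05 in either direction, and the same held for all contacts (0% higher in keratinocytes and 0% higher in thymocytes). The smallest adjusted p among the members was 0.767. At an unadjusted p under 0.05, 9 members were higher in keratinocytes and 5 in thymocytes, against 2.97% and 2.14% of all contacts, and all 14 make up 5.24% of the members. The differences below are therefore values with their replicate spread and not calls.

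An interaction above the distance expectation was called where the deposited q-value was under 0.05 in each of the 2 libraries of a cell type. In keratinocytes 16 of the 655 members listed in both libraries were called (2.44%), against 1.99% of all contacts. In thymocytes 20 of 346 were called (5.78%), against 4.03% of all contacts. Among the 267 members listed in all 4 libraries, 4 were called in keratinocytes alone (against 1.45% of all contacts), 4 in thymocytes alone (against 3.19%) and 6 in both cell types (2.25%, against 0.581%). A single library makes many more calls. Of the 655 members, 50 had a q-value under the threshold in the first keratinocyte library and 88 in the second, against 6.34% and 11.4% of all contacts listed in both. Of the 346, 54 were under it in the first thymocyte library and 58 in the second, against 10.3% and 12.7%. The calls specific to 1 cell type are not a test of a difference, since a contact can be just under the threshold in a library of the other cell type.

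**Figure D1:**
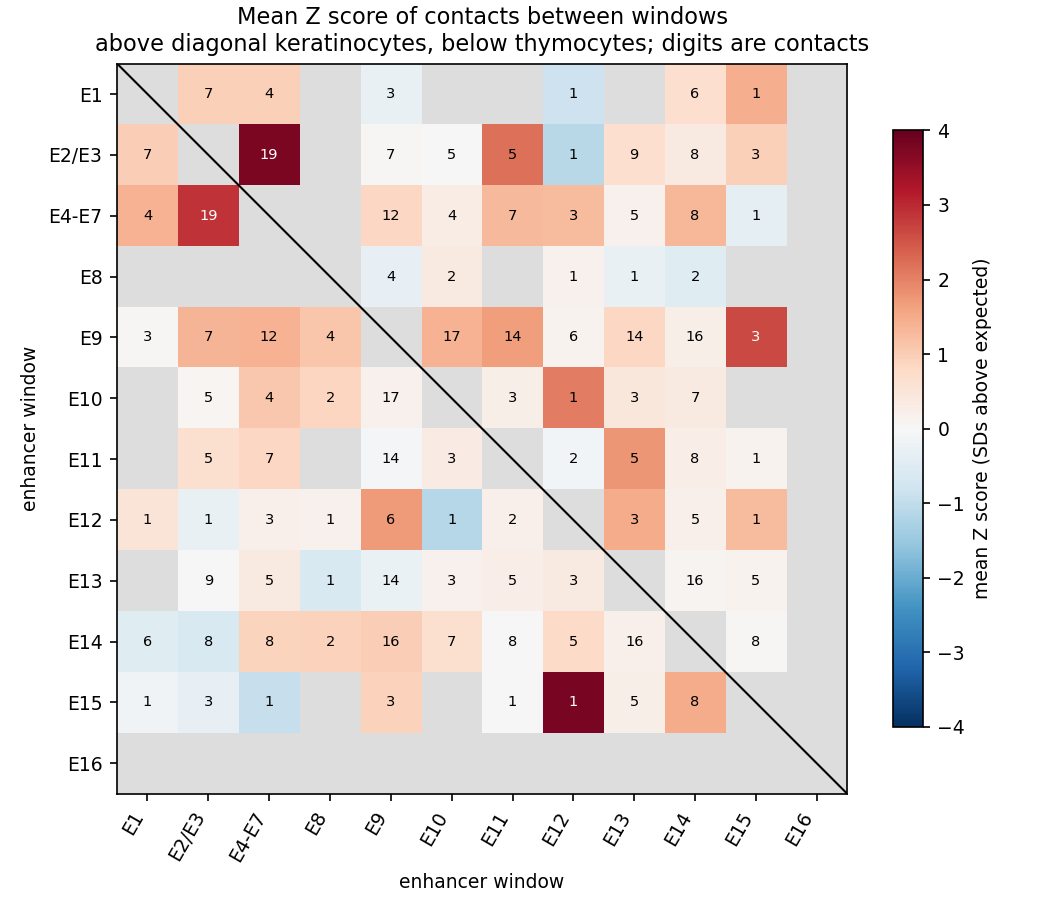
Mean Z score for each pair of enhancer windows over the contacts listed in all 4 libraries, averaged over the 2 keratinocyte libraries above the diagonal and the 2 thymocyte libraries below it; digits give the number of contacts and grey marks pairs with none. E2/E3 with E4-E7, with 19 contacts, is high on both sides of the diagonal, with mean Z scores of 3.78 in keratinocytes and 2.90 in thymocytes. Below the diagonal E12 with E15, with 1 contact, is higher, at 3.79.

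The pair of windows with the most called contacts was that of the enhancer clusters among the S100 genes of TAD1. E2/E3 with E4-E7 held 8 of the 16 keratinocyte calls, 8 of the 20 thymocyte calls and 11 of the 30 members called in either cell type. Of the 14 that were also listed in all 4 libraries it held 9. This pair of windows was singled out after its values were seen. It has 19 contacts listed in all 4 libraries, over 30 to 106 kb, and its mean Z score was 2.85 and 4.70 in keratinocytes and 2.98 and 2.82 in thymocytes. The first keratinocyte library lay between the thymocyte libraries and only the second was higher, so the cell types overlapped. In each cell type 7 of the 19 contacts were called (36.8%), against 2.24% of the 1607 contacts at these distances in keratinocytes and 6.16% in thymocytes. Those 1607 contacts had median Z scores of 0.185, 0.276, 0.255 and 0.292 in the 4 libraries, while the medians of the pair were 2.72, 3.58, 2.19 and 1.89. The contacts of the pair are not independent of each other. They come from 7 forward and 9 reverse fragments, and the 9 called ones from 4 forward and 6 reverse fragments, with FOR_154 in 4 of them.

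**Figure D2:**
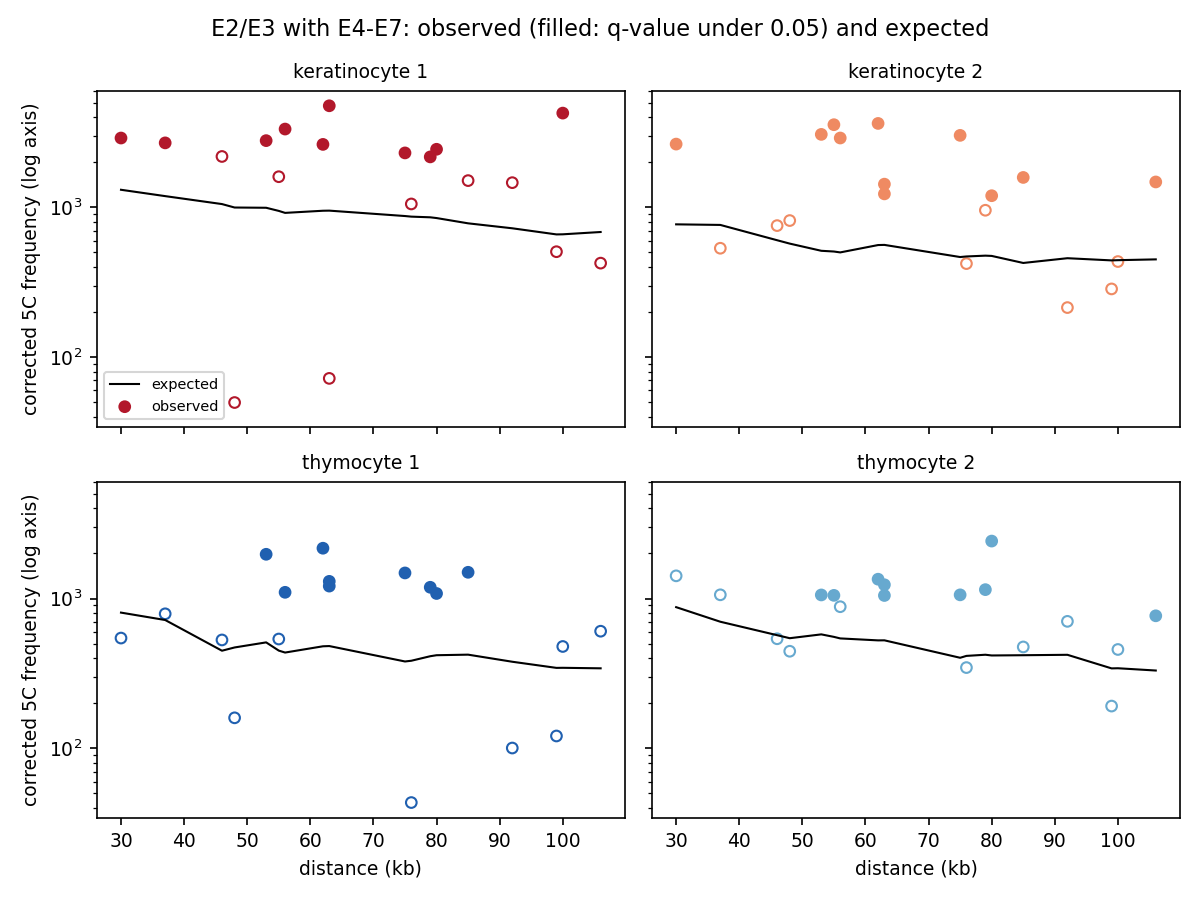
Corrected 5C frequency (log axis) of the 19 contacts between E2/E3 and E4-E7 against distance in kb, in each library, with the frequency expected at that distance as a line; filled points have a q-value under 0.05. In all 4 libraries the filled points lie above the line, while a few contacts lie far below it in the first library of each cell type.

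In this pair 5 contacts were called in all 4 libraries. FOR_154 x REV_126, over 62 kb, had observed frequencies of 2630 and 3630 in keratinocytes, expected at 949 and 560, and of 2166 and 1346 in thymocytes, expected at 480 and 526. Its Z scores were 3.65, 13.6, 11.2 and 5.18. The highest and the lowest of the 4 were both keratinocyte libraries, and the difference between cell types was 0.463 ± 5.75 (SE, limma adjusted p = 0.982).

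FOR_154 x REV_132, over 53 kb, which joins the same intergenic fragment to the start of S100a14, had Z scores of 4.78 and 10.9 in keratinocytes and 8.06 and 2.81 in thymocytes. FOR_159 x REV_132, over 75 kb, joins the fragment with exons of S100a4 and S100a5 to that same S100a14 fragment, and had 3.66 and 12.5 in keratinocytes and 8.73 and 5.01 in thymocytes. FOR_125 x REV_155, over 63 kb, had 8.27 and 3.86 against 4.83 and 3.31. The keratinocyte and thymocyte values of all 3 contacts overlapped. FOR_125 x REV_158, over 80 kb, which joins S100a1 and S100a13 to S100a3, had 3.97 and 3.58 in keratinocytes and 5.22 and 15.2 in thymocytes. Here both thymocyte libraries were higher, by very different amounts, and the difference was -6.41 ± 5.85 (SE, limma adjusted p = 0.779). On the scale of observed over expected frequency the 4 libraries gave 2.88, 2.52, 2.58 and 5.80.

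The other 4 called contacts of E2/E3 with E4-E7 were called in 1 cell type. FOR_154 x REV_128, over 56 kb, with a reverse fragment over exons of S100a13, had Z scores of 6.15 and 10.8 in keratinocytes and 4.60 and 1.89 in thymocytes. Both keratinocyte libraries were higher, with a difference of 5.23 ± 5.15 (SE, limma adjusted p = 0.784). FOR_154 x REV_140, over 30 kb, had 2.72 and 5.14 in keratinocytes and -0.850 and 1.64 in thymocytes, so again the groups did not overlap and the difference was 3.53 ± 2.09 (SE, limma adjusted p = 0.767). In the other direction FOR_159 x REV_128, over 79 kb, had 3.29 and 2.43 in keratinocytes and 6.07 and 5.49 in thymocytes. In the second keratinocyte library its q-value was 0.0520, just over the threshold. FOR_127 x REV_155, over 63 kb, had -1.91 and 2.98 in keratinocytes and 5.44 and 4.50 in thymocytes, with observed frequencies of 72.2 and 1230 in the 2 keratinocyte libraries against 1302 and 1236. The gap between the keratinocyte libraries was thus wider than the gap between the means of the cell types.

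Some fragments of the S100 clusters had a larger share of called contacts than the whole data set, with its 2.03% in keratinocytes and 3.77% in thymocytes. Of the 117 contacts of FOR_154 listed in all 4 libraries, 5 were called in keratinocytes (4.27%) and 12 in thymocytes (10.3%). REV_132 had 10 (8.06%) and 6 (4.84%) of 124, the second close to the thymocyte share of the whole data set. FOR_159 had 2 (10%) and 8 (40%) of only 20. REV_164, in E4-E7, had 8 (7.55%) and 7 (6.60%) of 106. In contrast FOR_144, also in E4-E7, had 0 of 104 in either cell type. Other fragments of the clusters are not given here. The part of single fragments in the count of calls between the 2 clusters was not tested.

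**Figure D3:**
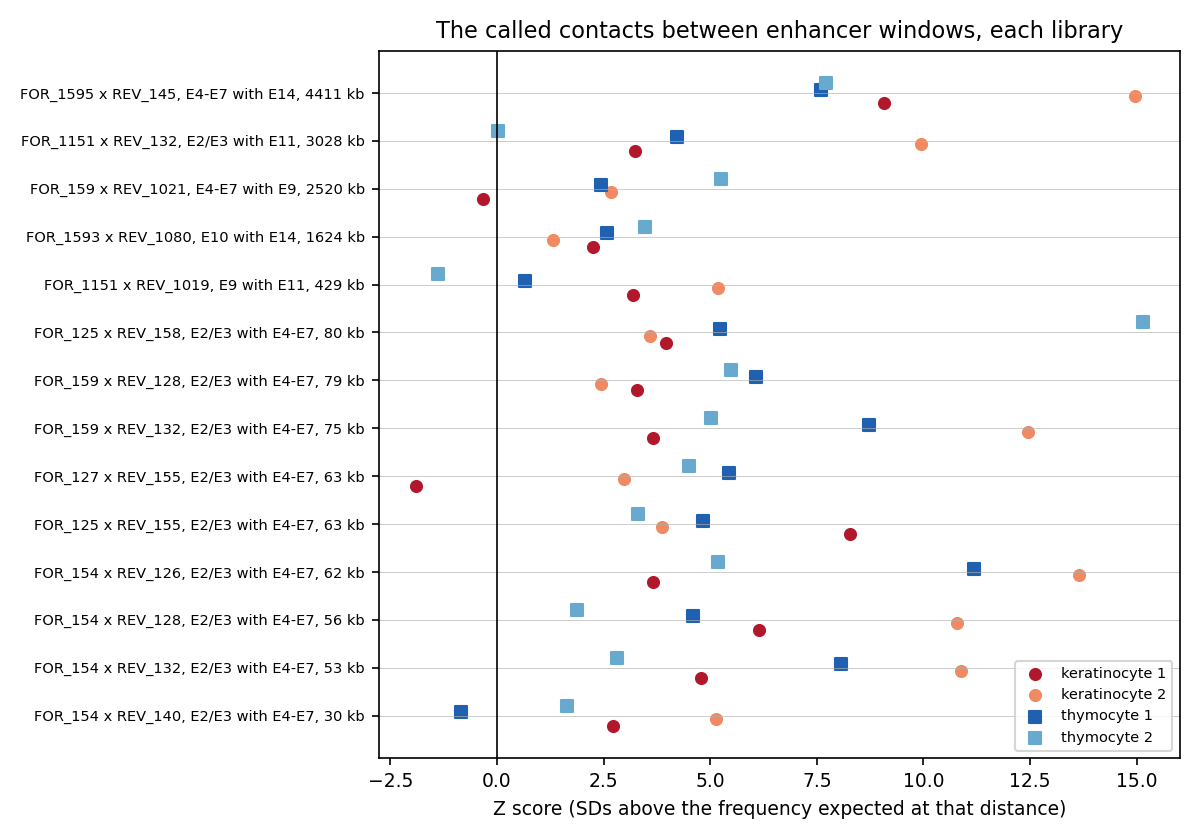
Z scores in each library of the 14 contacts between enhancer windows that were called in both libraries of a cell type and listed in all 4 libraries, ordered by distance; circles are keratinocytes and squares thymocytes. In FOR_1151 x REV_1019 both circles are at 3.20 or above and both squares at 0.661 or below, while in 4 of the 9 contacts of E2/E3 with E4-E7 circles and squares overlap.

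Other pairs of windows held 8 of the 16 keratinocyte calls and 12 of the 20 thymocyte calls, most of them not listed in all 4 libraries. Of the 248 other members that were listed in all 4, all at least 120 kb apart, 3 were called in keratinocytes and 3 in thymocytes (1.21% each), against 2% and 3.59% of all contacts at least 100 kb apart. The longest was FOR_1595 x REV_145, which joins an intron of Pi4kb in E14 to intergenic sequence in E4-E7 over 4411 kb. It was called in all 4 libraries. Its observed frequency was 358 and 335 in keratinocytes, expected at 62.2 and 43.4, and 513 and 365 in thymocytes, expected at 116 and 86.5, or 5.74, 7.73, 4.43 and 4.22 times the expected frequency. The Z scores were 9.07, 14.9, 7.60 and 7.72, with means of 12.01 ± 4.16 (SD, n = 2) in keratinocytes and 7.66 ± 0.0860 in thymocytes. Both keratinocyte libraries were above both thymocyte libraries, and the difference of 4.34 ± 4.16 (SE) had a limma adjusted p of 0.782. Neither fragment was called throughout. FOR_1595 was called in 1 of its 101 contacts in keratinocytes (0.990%) and 3 in thymocytes (2.97%). REV_145, a fragment of 131 bp, was called in 2 and 3 of 34 (5.88% and 8.82%). Over all contacts listed in all 4 libraries the shares were 2.03% and 3.77%.

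Of the contacts called in keratinocytes alone beyond the S100 clusters, both used the same fragment in the S100a10 gene. FOR_1151 x REV_1019 joins it to E9 over 429 kb within TAD4. The observed frequency was 743 and 488 in keratinocytes, expected at 291 and 146, and 109 and 52.8 in thymocytes, expected at 86.2 and 101. The Z scores of 3.20 and 5.18 against 0.661 and -1.38 did not overlap, and the difference was 4.55 ± 1.82 (SE, unadjusted p = 0.0464 and adjusted p = 0.767 in limma). FOR_1151 x REV_132, to the start of S100a14 over 3028 kb, had 3.25 and 9.93 in keratinocytes and 4.22 and 0.0283 in thymocytes. Its first thymocyte library was above its first keratinocyte library, so the groups overlapped although the call was made in keratinocytes alone. FOR_1151 was called in 5 of its 125 contacts in keratinocytes (4%), against 2.03% of all contacts listed in all 4 libraries. In thymocytes it was called in 12 (9.6%), against 3.77%.

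The 2 contacts called in thymocytes alone beyond the S100 clusters had smaller Z scores. FOR_159 x REV_1021, between E4-E7 and E9 over 2520 kb, had -0.321 and 2.66 in keratinocytes and 2.44 and 5.26 in thymocytes, and the groups overlapped. FOR_1593 x REV_1080, between E14 and E10 over 1624 kb, had 2.25 and 1.32 in keratinocytes and 2.58 and 3.47 in thymocytes. There the groups did not overlap, yet the ratios of observed to expected frequency, 2.28, 1.64, 2.03 and 2.33, did.

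A further 6 contacts called in keratinocytes and 10 called in thymocytes were not listed in all 4 libraries and could not be compared in full. The 3 given here were chosen after their values were seen. FOR_1595 x REV_1150, between E14 and E11 over 1421 kb, had Z scores of 6.50 and 13.5 in keratinocytes and was listed in neither thymocyte library. Its reverse probe is 1 of the 2 with no site within 5 mismatches. FOR_1151 x REV_134, between E11 and E2/E3 over 3024 kb, had 16.7 and 7.71 in thymocytes and 5.03 in the 1 keratinocyte library that listed it. FOR_1485 x REV_823, between E12 and E8 over 2156 kb, had 8.42 and 3.65 in thymocytes and 14.9 in the 1 keratinocyte library that listed it.

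Among contacts whose cell types did not overlap, the largest differences came with a wide gap between libraries of 1 cell type. The 5 largest toward keratinocytes included FOR_154 x REV_128, given above. FOR_1151 x REV_1021, between E11 and E9 over 426 kb, had Z scores of 0.297 and 14.4 in keratinocytes and -2.17 and -0.547 in thymocytes. FOR_1151 x REV_1532, between E11 and E13 near Cgn over 1232 kb, had 2.27 and 12.9 against -2.04 and 2.24. FOR_1529 x REV_1021, between E13 and E9 over 1652 kb, had 1.86 and 9.88 against -1.61 and -0.714. FOR_1013 x REV_164, between E9 and E4-E7 over 2493 kb, had -0.0672 and 9.43 against -0.956 and -1.42. In each of these 5 the second keratinocyte library was the highest of the 4. The differences ran from 5.23 to 8.69 and each had an adjusted p of 0.767 or 0.784 in limma.

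The 5 largest toward thymocytes included FOR_125 x REV_158 and FOR_127 x REV_155, given above. FOR_1593 x REV_1024, between E14 and E9 over 1833 kb, had -0.494 and -0.919 in keratinocytes and -0.228 and 14.5 in thymocytes. FOR_1022 x REV_825, between E9 and E8 over 630 kb, where the reverse fragment covers the start of Sprr4, had -0.682 and -0.857 against 1.54 and 5.69. FOR_1529 x REV_164, between E13 and E4-E7 over 4162 kb, had -1.37 and -1.19 against 0.0831 and 5.12. In 4 of the 5, all but FOR_127 x REV_155, the second thymocyte library was the highest. Differences ran from -3.88 to -7.84, with adjusted p of 0.767 or 0.779 in limma.

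Taken by pairs of windows, 46 of the 66 possible pairs had a contact listed in all 4 libraries and 34 had at least 3. The mean Z score was higher in keratinocytes in 17 of the 34 and lower in 17. The library means did not overlap in 17 pairs, 9 with keratinocytes higher and 8 with thymocytes higher. The same count was not made for pairs of other regions, so the 17 have no background here. Pairs share fragments and libraries. A pair without overlap cannot reach a p under 0.333 in an exact two-sided permutation test of 2 libraries against 2. On the scale of the log2 ratio of observed to expected frequency the sign of the difference turned in 5 of the 34 pairs, none of them among the pairs named below. Of the 17 pairs without overlap in Z score, 6 overlapped on that scale.

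By the mean over contacts, the pair of the 34 with the largest difference toward keratinocytes was E9 with E11 in TAD4. It joins the region near Crnn to S100a10. Its 14 contacts, over 413 to 449 kb, had mean Z scores of 1.01 and 2.35 in keratinocytes and 0.223 and -0.329 in thymocytes. The groups did not overlap, and the difference of the means was 1.73. As a median over contacts it was 1.18, below the 1.43 of E9 with E15, the 1.41 of E9 with E10 and the 1.31 of E12 with E13. FOR_1151 x REV_1021 and FOR_1151 x REV_1019, given above, are among the 14 contacts. The first of them had 14.4 in the second keratinocyte library. Of the 14 contacts, 4 had both keratinocyte libraries above both thymocyte libraries, against 21.1% of all contacts. A further 2 had both below, against 19.1%. E2/E3 with E11, with 5 contacts over 3023 to 3046 kb, had 2.80 and 1.63 against 0.449 and 0.811, although in none of the 5 were both keratinocyte libraries above both thymocyte libraries. E11 with E13, with 5 contacts, had 0.728 and 2.82 against 0.239 and 0.274. Its difference was 1.52 as a mean over contacts and 0.816 as a median. FOR_1151 x REV_1532, given above, is among the 5 and had 12.9 in the second keratinocyte library. The pair without this contact was not analysed. E11 was part of these 3 pairs, and FOR_1151 has contacts in all 3. On the log2 ratio of observed to expected frequency, E2/E3 with E11 had 1.30 and 0.20 against -0.08 and 0.27, so there its libraries overlapped. E9 with E15, with 3 contacts, had 1.48 and 3.79 against -0.416 and 2.29. E2/E3 with E15, also with 3, had -0.727 and 2.64 against -1.04 and 0.409. Both of these pairs overlapped, and in E2/E3 with E15 the median over contacts had the opposite sign, at -0.368 against a mean of 1.27. E9 with E10, the neighbouring windows near Crnn and Hrnr, was singled out after its values were seen. Of its 17 contacts, 8 had both keratinocyte libraries above both thymocyte libraries, against 21.1% of all contacts. A further 2 of its contacts had both below, against 19.1%. Its mean Z scores were 2.42 and 0.338 against 0.110 and 0.232, so the keratinocyte libraries differed more from each other than the lower one did from thymocytes.

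Toward thymocytes the largest difference of means was that of E9 with E12, whose 6 contacts had 0.0664 and 0.236 in keratinocytes and -0.414 and 3.84 in thymocytes. It overlapped and rested on the second thymocyte library. E8 with E9, for which 3 of the 4 contacts use FOR_824 and the other REV_825 at Sprr4, had -0.229 and -0.446 against 0.371 and 1.85 without overlap. E2/E3 with E9, with 7 contacts, had 0.634 and -0.543 against 1.63 and 1.12, and E4-E7 with E10, with 4, had 0.156 and 0.416 against 0.783 and 1.35. Neither overlapped in Z score, and both did on the log2 ratio. In none of the 7 contacts of E2/E3 with E9 were both keratinocyte libraries below both thymocyte libraries. There 1 contact had 12.9 in the first thymocyte library, and the difference was -1.33 as a mean over contacts and -0.634 as a median. In E4-E7 with E10, 1 contact had 6.63 in the second thymocyte library, and the difference was -0.779 as a mean and -0.274 as a median. E14 with E15, with 8 contacts over 235 to 254 kb across the border of TAD6 and TAD7, had 0.319 and -0.205 against 2.73 and 0.242 and did overlap.

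**Figure D4:**
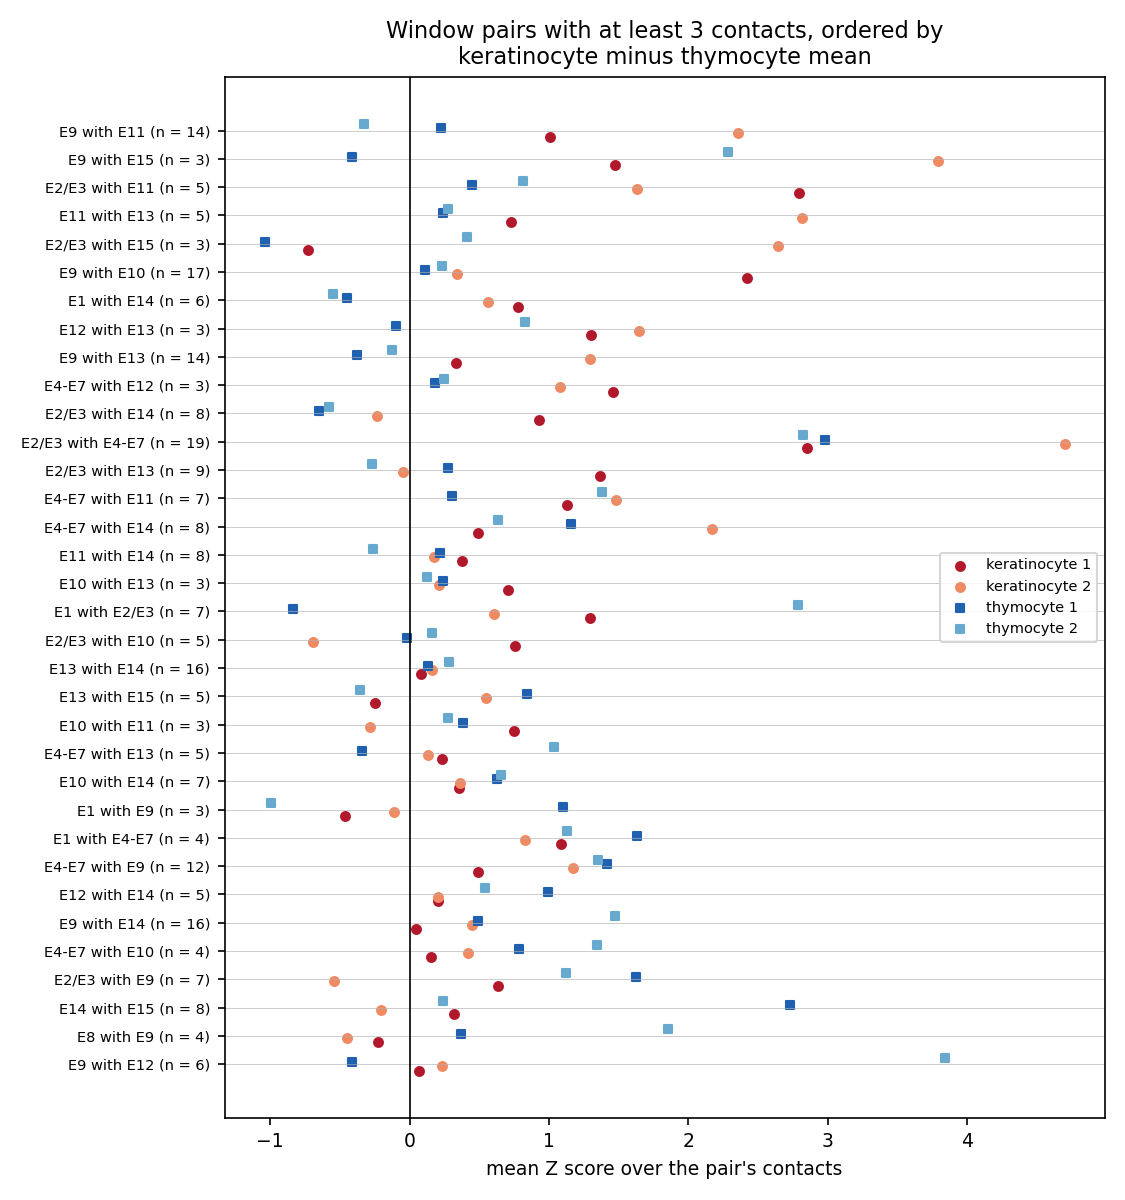
Mean Z score in each library for the 34 pairs of enhancer windows with at least 3 contacts listed in all 4 libraries, ordered by the difference of keratinocytes minus thymocytes, with the number of contacts in brackets. E9 with E11 is at the top, with both circles (keratinocytes) right of both squares (thymocytes), and E9 with E12 at the bottom, where 1 square lies far from the other points.

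By window, the contacts of E11 with all other windows had the largest mean difference toward keratinocytes, 0.991 over 45 contacts, with mean Z scores of 0.992 and 1.47 in keratinocytes and 0.261 and 0.219 in thymocytes. E8 had the largest toward thymocytes, -0.930 over 10 contacts, with -0.340 and -0.0133 against 0.471 and 1.03. The groups did not overlap for either window. E2/E3 had a difference of 0.492 over 64 contacts, with 1.58 and 1.55 against 0.933 and 1.22, and E13 one of 0.494 over 61, with 0.462 and 0.694 against 0.0499 and 0.118. As a median over contacts the difference was 0.466 for E11, 0.497 for E2/E3, 0.211 for E13 and -0.666 for E8. By the median E11 was thus not the highest. Its contacts include FOR_1151 x REV_1021 and FOR_1151 x REV_1532, with 14.4 and 12.9 in the second keratinocyte library. The mean difference of E4-E7 was 0.234, of E9 0.218 and of E14 -0.138, over 63, 96 and 84 contacts. The libraries of the cell types overlapped for E4-E7 and E9. For E14 they did not, with 0.301 and 0.378 in keratinocytes and 0.530 and 0.425 in thymocytes. E16, next to Prune, had no contact listed in all 4 libraries: the keratinocyte libraries listed 50 and 24 of its contacts with other windows and the thymocyte libraries 4 and 3. Each contact counts for both of its windows, so the windows are not independent.

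Within TADs the members were further above expectation than between TADs. The 88 contacts between windows of the same TAD had median Z scores of 0.937 and 0.459 in keratinocytes and 0.280 and 0.387 in thymocytes. The 179 between windows of different TADs had 0.199 and 0.168 against 0.103 and -0.186. For all contacts the medians were 0.307, 0.303, 0.220 and 0.257 within TADs and 0.130, 0.176, 0.139 and 0.0353 between them. The median Z difference between cell types was 0.515 within TADs and 0.0220 between TADs for the members, against 0.0157 and -0.0374 for all contacts. In both kinds of member contact the keratinocyte medians were above the thymocyte medians. The 88 include the 19 contacts of E2/E3 with E4-E7, whose median Z scores were 2.72, 3.58, 2.19 and 1.89. How far the values within TADs rest on those 19 was not tested. Without the 19, the median Z difference over the other 248 members, which include the 179 between TADs, was 0.116.

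By distance, the members were furthest above expectation under 100 kb. All 17 members there are of E2/E3 with E4-E7, so distance and that pair cannot be told apart. They had median Z scores of 2.72, 3.58, 4.60 and 1.89, against 0.210, 0.251, 0.169 and 0.221 for all contacts under 100 kb. The 84 members from 100 to under 500 kb had 0.558, 0.301, 0.269 and 0.248, and all contacts at these distances 0.189, 0.250, 0.234 and 0.245. From 500 to under 2000 kb the 70 members had 0.0985, 0.249, -0.0536 and 0.0634, against 0.212, 0.217, 0.105 and 0.0891 for all contacts. From 2000 to under 3500 kb the 50 members had 0.332, -0.0847, 0.109 and -0.173, against 0.131, 0.160, 0.157 and -0.123. Beyond 3500 kb the 46 members had 0.247, 0.156, 0.139 and -0.452, against 0.185, 0.167, 0.236 and 0.0503. There both keratinocyte libraries were above both thymocyte libraries in 16 contacts (34.8%), against 21.5% of all contacts at these distances. Both were below in 7 (15.2%), against 20.1%. In the nearer ranges, from short to long, the share above was 29.4%, 22.6%, 22.9% and 16%, against 21.3%, 18.7%, 22.3% and 21.9% of all contacts.

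**Figure D5:**
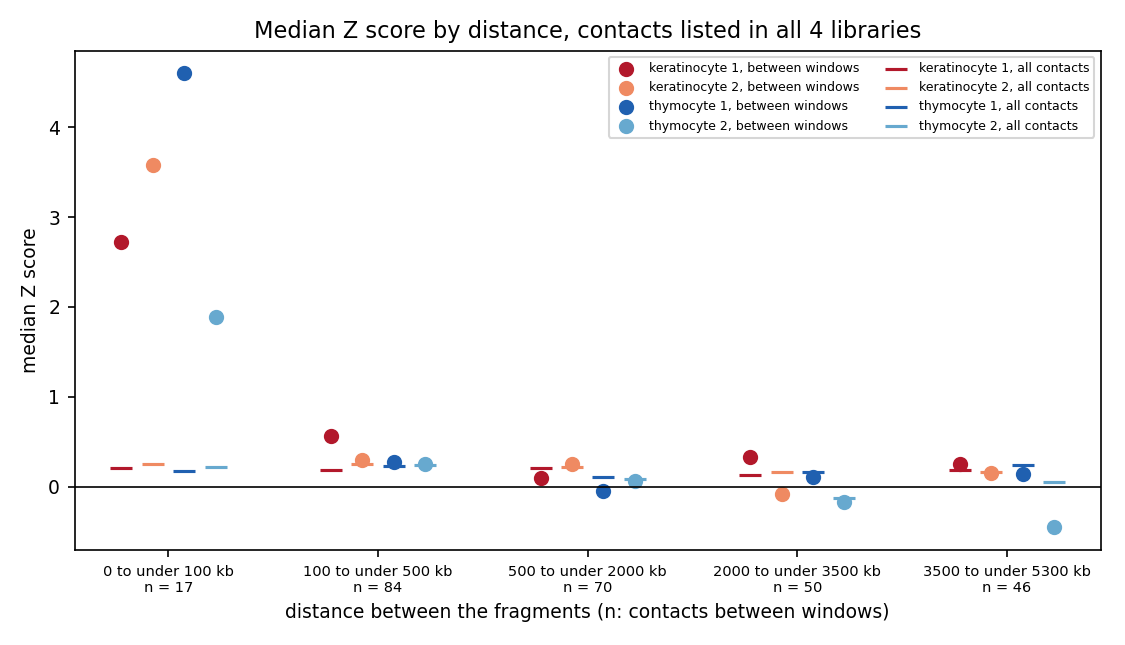
Median Z score in each library by distance between the fragments, for contacts between enhancer windows (points) and for all contacts (bars), listed in all 4 libraries. Under 100 kb the points lie between 1.89 and 4.60, far above the bars, and beyond 100 kb they lie between -0.452 and 0.558.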

How the data were processed

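The authors aligned the reads of 4 5C libraries to the probe sequences (Bowtie, per the labels; version not given in the sources used here; build mm9), dropped outlying probes and isolated extreme contacts, and corrected probe coverage by Loess. The deposited signal is the corrected 5C frequency, with the expected frequency and SD at each distance. Z scores are a deposited score, and recomputing them from the other columns gave the same values. The authors' p-values and q-values come from a Weibull fit in each library. The other deposited values are fragment coordinates and distances.

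Members and lists were chosen with earlier results of these data known. Windows were read from the rule, TADs from the study's average keratinocyte borders for both cell types, and genes from GENCODE vM1. Contacts listed in all 4 libraries were fitted in limma 3.58.1 (R 4.3.3; lmFit, eBayes with trend, no covariates), keratinocytes minus thymocytes, with Benjamini-Hochberg adjustment over all of them and a threshold of 0.05. The limma p-values set the difference between cell types against the spread between libraries of a cell type. That spread is estimated partly from the other contacts. Probe sequences came from the study's probe list. The step was tested on simulated data.

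Named contacts are those listed in all 4 libraries and called in each library of a cell type (q-value under 0.05), up to 10 for each cell type by mean Z score, and the 5 with the largest limma difference in each direction whose groups do not overlap. Window pairs need 3 contacts, and the 5 highest and lowest by difference are named. Replicate numbers in the labels are not stated to pair libraries. Alternatives were other q-value thresholds, adjustment of the deposited p-values, assignment by overlap, minimum distance, TADs, scale, trend, centring, a replicate block, and each library left out.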

Additional observations from a re-analysis of the deposited data

How the results depend on the processing

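The limma count among the members was 0 under each alternative fitted: replicate block, both log2 scales, no trend, centring, overlap and each library left out. With the replicate block 21 members had an unadjusted p under 0.05 (7.87%, against 5.29% of all contacts), and 14 without it. On log2 corrected frequency 34 did (12.7%, against 11.4%), and there 7 contacts of the whole set rose and 107 fell at the adjusted threshold. With only 2 pairs the numbers were not taken to pair the libraries, and the deviations of same-numbered libraries correlated at r = -0.0937 over all contacts. At a q-value under 0.01, calls in keratinocytes alone and in thymocytes alone fell to 2 each. The share of all contacts at that threshold was not computed. With windows of different TADs only, the counts were 7 called in keratinocytes, 11 called in thymocytes, 1 in keratinocytes alone, 2 in thymocytes alone and 1 common, and the median difference was 0.0220 in Z score and 0.0218 in log2 ratio. Of the 179 such members listed in all 4 libraries, 2 were called in keratinocytes (1.12%) and 3 in thymocytes (1.68%). Among all contacts between TADs the shares were higher, at 1.75% and 3.25%. With a library left out, so that a call rests on the other, the counts ran from 50 to 88 in keratinocytes, from 54 to 58 in thymocytes, from 2 to 27 in keratinocytes alone, from 2 to 36 in thymocytes alone and from 6 to 8 in common. Shares of all contacts under the threshold in a single library are given above. Those for the other counts were not computed. With a library left out the median difference ran from 0.00494 to 0.325 in Z score and from 0.0500 to 0.208 in log2 ratio. Of 126 values of the 21 named contacts under alternatives 7 changed sign, all with a library left out and all in 4 contacts of E2/E3 with E4-E7: FOR_154 x REV_126 (-4.53 without the second keratinocyte library and -2.54 without the second thymocyte library, range up to 5.46), FOR_154 x REV_132 (-0.655 and -0.229, up to 5.44), FOR_159 x REV_132 (-3.21 and -0.677, up to 5.58) and FOR_125 x REV_155 (-0.208 without the first keratinocyte library, up to 4.20). Fewer samples or contacts enter these alternatives by construction. A q-value under 0.10, any overlap with the window, Benjamini-Hochberg adjustment, centring, a mean for the median and a minimum of 50 kb kept each count within 1.5 times and each median within the replicate spread. The unknown depth limits what an unlisted contact can say.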
